A study of Mus musculus with 12 samples.

Results

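Hearts labelled with floxed Flna were compared with hearts that kept Flna intact, pooled over both Asb2 genotypes of the series. The comparison set 6 Flna-labelled libraries against 6 Flna-intact libraries, which together are all 12 libraries of the series, with the Asb2 genotype as a block. It was made over the 13322 autosomal genes that were listed for all 12 libraries and averaged at least 1 CPM, out of 15663 genes in any deposited table. CPM are read counts divided by the size of the library, here on library sizes that the authors had scaled. RNA was sequenced from hearts of mouse embryos (strain C57/BL 6) of embryonic day 9.5, a stage of heart looping and chamber formation. Every embryo carried a Cre driver named NkxCre and at least 1 floxed Asb2 allele, so that no group was free of Cre or of a floxed gene. The Flna-labelled hearts were NkxCre.Asb2fl/+.Flnafl/fl (called labelled fl/+ from here on, 3 libraries) and NkxCre.Asb2fl/fl.Flnafl/fl (labelled fl/fl, 3 libraries). The Flna-intact hearts were NkxCre.Asb2fl/+ (intact fl/+, 3 libraries) and NkxCre.Asb2fl/fl (intact fl/fl, 3 libraries). The labels do not name the cells in which the driver is active, and they do not say whether a library came from 1 embryo or a pool. The p-values therefore measure only how these libraries vary, and that variation may be technical in part.

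Flna encodes filamin A, a large dimer that holds actin filaments together in networks and anchors membrane receptors to them. ASB2 is the subunit that brings substrates, filamins among them, to a cullin-based ubiquitin ligase, and in muscle cells it lowers filamin protein. Filamin is therefore a candidate mediator of what follows when Asb2 is lost, and the pooled comparison asks which transcripts go with the Flna label whatever the Asb2 genotype. Hearts at this stage are filled with primitive red blood cells from the yolk sac, which carry large amounts of embryonic globin transcripts.

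The label was checked first, and it was not matched by lower Flna transcript. Flna (chromosome X, 74223461 to 74249820, GRCm38) stood at 958, 1011 and 989.5 CPM in the labelled fl/+ libraries and at 1012, 1012 and 1146 CPM in the labelled fl/fl libraries. In the intact fl/+ libraries it stood at 490.3, 554 and 721 CPM, and in the intact fl/fl libraries at 1032, 869 and 725 CPM. Within Asb2 fl/+ hearts all 3 labelled libraries were above all 3 intact ones, and within Asb2 fl/fl hearts the groups overlapped through intact library 1. The pooled difference of mean log2(CPM + 0.5), labelled minus intact, was 0.52 (exact two-sided permutation test within each Asb2 genotype, p = 0.015, adjusted p = 0.03 over the 2 transcripts so tested, smallest p possible 0.005). The values are counts over the whole gene, and whether a single exon was missing was not tested. Every direction given below for Flna-labelled hearts rests on the label.

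Transcripts that mark sex moved with the label. Xist, the X-inactivation RNA, was at 0.0506, 0.123 and 0.367 CPM in labelled fl/+ and at 0.0477, 0.546 and 9.34 CPM in labelled fl/fl, against 0.823, 302 and 106 CPM in intact fl/+ and 571, 0.38 and 377 CPM in intact fl/fl. The log2 difference was -5.36 (exact permutation test, p = 0.03, adjusted p = 0.03), and the call was lost, with p of 0.05 to 0.075, on leaving out intact fl/+ library 2 or 3, intact fl/fl library 1 or 3, or labelled fl/fl library 1. The summed level of the Y-linked genes Ddx3y, Eif2s3y, Kdm5d and Uty was 170.2 to 218 CPM in the 6 Flna-labelled libraries, against 0 to 212 CPM in the 6 Flna-intact libraries. Intact fl/+ library 2 had no Y-linked transcript, while 3 intact libraries (fl/+ library 3 and fl/fl libraries 1 and 3) held both Xist and Y-linked transcripts. The label Flnafl/fl writes 2 floxed copies of an X-linked gene, while all 6 labelled libraries held Y-linked transcripts and at most 9.34 CPM of Xist. How the label and the sex of these hearts go together was not tested. In the pooled comparison the Flna label and the sex make-up of the libraries cannot be fully told apart. Genes of the X and Y chromosomes were not part of the pooled test. The autosomal genes were also fitted with the log2 Xist level as a covariate, and over the 7 libraries whose Xist level stayed under 1 CPM. Those 7 hold 5 labelled libraries and 2 intact ones, fl/+ library 1 and fl/fl library 2, so that each Asb2 genotype has 1 intact library, assumed to vary like the others. In both fits 0 genes passed in the pooled comparison, with 560 and 1340 under an unadjusted p of 0.05.

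**Figure D1:**
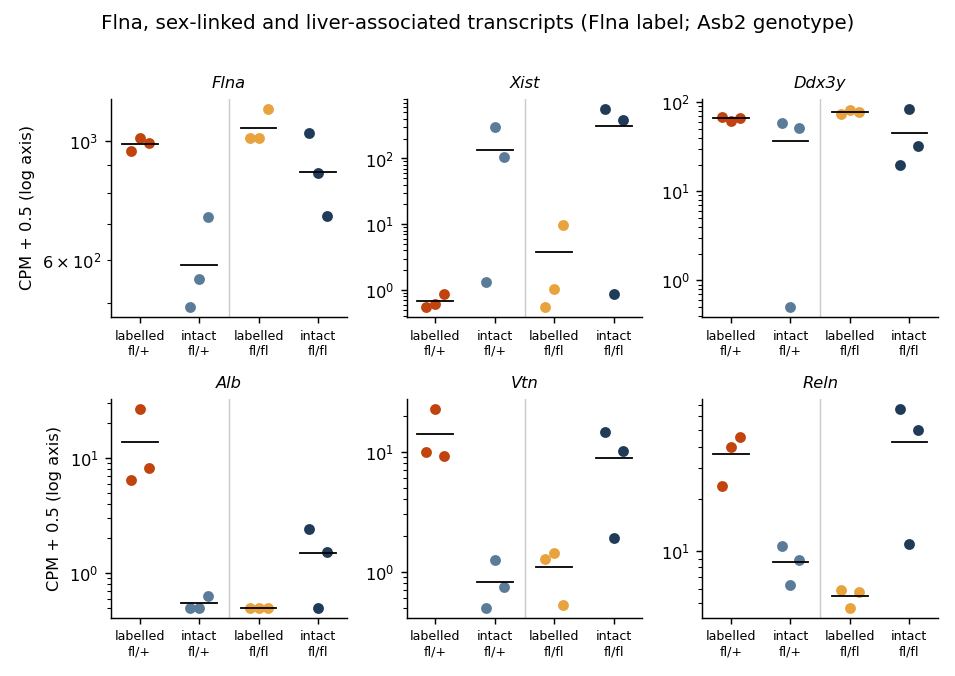
Levels of Flna, Xist, Ddx3y (Y-linked), Alb, Vtn and Reln in each of the 12 libraries, as CPM + 0.5 on a log axis. Points are libraries, bars are the means of the 3 libraries of a group, and a grey line parts the Asb2 genotypes. Flna is not lower in labelled hearts, Xist is below 10 CPM in all labelled libraries and above 100 CPM in 4 intact ones, Vtn and Reln are high in labelled fl/+ and in 2 of 3 intact fl/fl libraries, and Alb is at 5.95 to 26.0 CPM in labelled fl/+ and at most 1.93 CPM elsewhere.

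The libraries held 25954539 to 42473118 reads in listed genes. The dissected tissue carried its defining markers, since the 10 heart muscle genes checked (among them Tnnt2, Myh6, Actc1 and Nkx2-5) summed to 16579 to 40818 CPM in the Flna-labelled libraries and to 22429.6 to 40654 CPM in the Flna-intact libraries. Asb2 itself was at 125, 113 and 197 CPM in labelled fl/+ and 122, 121 and 153 CPM in labelled fl/fl, against 289, 183 and 218 CPM in intact fl/+ and 77.8, 163 and 115 CPM in intact fl/fl. The pooled Asb2 groups overlapped, and the log2 difference of -0.24 (95% interval -0.72 to 0.24) did not pass. It was -0.56 with the Xist covariate (unadjusted p = 0.0689 by limma) and -0.75 over the 7 libraries with low Xist (unadjusted p = 0.00714, adjusted p = 0.47 by limma).

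Over all genes, 0 of 13322 passed in the pooled comparison (0.0% called, limma's moderated test with Benjamini-Hochberg adjustment at 0.05, lowest adjusted p = 0.229). At an unadjusted p under 0.05 there were 684 genes (5.13%), of which 395 (2.97%) were higher and 289 (2.17%) lower in Flna-labelled hearts. The quasi-likelihood test of edgeR on the recovered read counts also called 0 genes, with 653 at an unadjusted p under 0.05, while DESeq2 on the same counts called 22, of which 5 were higher and 17 lower. Leaving out labelled fl/+ library 1 gave 2 calls, labelled fl/+ library 2 gave 1 and labelled fl/fl library 3 gave 1, and leaving out any of the other 9 libraries gave 0. The data were precise enough to bound most pooled differences, which average over the 2 Asb2 genotypes. The median standard error (SE) of a pooled log2 difference was 0.12, against 0.17 for a difference within either Asb2 genotype. For 12678 genes (95.2%) the 95% interval of the pooled difference lay inside a 2-fold difference in either direction. For 78.3% of genes it lay inside 1.5-fold. Only 41 genes had a pooled log2 difference of at least 1 in size, 26 of them higher and 15 lower in Flna-labelled hearts, and each of these is among the genes that did not pass.

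Transcripts of red blood cells were frequent among the genes with the smallest p in the pooled comparison, none of which passed. Of the 10 genes with the smallest p, 5 belong to the red cell lists, namely Hba-a1, Hba-a2, Hbb-bh1, Car2 and Trim10, and all 5 had negative differences (labelled minus intact) in both Asb2 genotypes. In RNA from whole hearts, fewer cells of a type and less RNA per cell cannot be told apart. Hbb-y, Hbb-bh1 and Hba-x encode the embryonic globin chains of primitive red cells, and Hba-a1 and Hba-a2 encode the alpha chain used throughout life. The sequences just upstream of globin genes are shown because the motifs of the main red cell factors can be read in them, with capitals marking CCACCC (either strand, the core of sites bound by KLF1) and GATAA (either strand, the core of sites bound by GATA1). The windows are the 250 bases before the first start listed for each gene by RefSeq on GRCm38.p6, written 5′ to 3′ on the gene's strand.
Hbb-y promoter, chr7:103853208-103853457, minus strand: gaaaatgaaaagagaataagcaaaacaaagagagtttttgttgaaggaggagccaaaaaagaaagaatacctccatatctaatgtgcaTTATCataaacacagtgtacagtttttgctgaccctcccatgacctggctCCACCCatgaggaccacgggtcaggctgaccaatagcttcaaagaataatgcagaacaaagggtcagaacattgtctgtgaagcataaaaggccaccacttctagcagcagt
Hba-x promoter, chr11:32276350-32276599, plus strand: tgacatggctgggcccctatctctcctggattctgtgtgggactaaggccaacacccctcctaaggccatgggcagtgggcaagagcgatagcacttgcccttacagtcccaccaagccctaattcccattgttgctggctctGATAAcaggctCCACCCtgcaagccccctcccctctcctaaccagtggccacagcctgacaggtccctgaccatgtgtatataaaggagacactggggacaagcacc
Hba-a1 promoter, chr11:32283422-32283671, plus strand: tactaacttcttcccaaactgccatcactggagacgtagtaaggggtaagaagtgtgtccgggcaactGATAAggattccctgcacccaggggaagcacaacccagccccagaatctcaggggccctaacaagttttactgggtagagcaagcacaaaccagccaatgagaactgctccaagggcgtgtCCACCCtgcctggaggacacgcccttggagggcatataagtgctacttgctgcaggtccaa
Each of these windows held 1 CCACCC and 1 GATAA. Over the 32851 promoter windows of the same length, 28.1% held CCACCC, 22.6% held GATAA and 5.0% held both. Of the 27 genes of the red cell lists, 21 had a window, 13 of those held CCACCC and 18 held GATAA. A match of letters describes the sequence and shows no binding. The window of Hba-a2 shares a run of 247 bases with that of Hba-a1, and the Hba-a1 and Hba-a2 transcripts are 99.8% identical over 538 bases, so reads could be split between these copies and their single values are uncertain.

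Hbb-y stood at 1657, 2025 and 1575 CPM in labelled fl/+ against 3668, 4119 and 4491 CPM in intact fl/+. In the other Asb2 genotype it stood at 322, 234 and 169 CPM in labelled fl/fl against 231, 347 and 567 CPM in intact fl/fl. The groups were fully apart in Asb2 fl/+ hearts and overlapped in Asb2 fl/fl hearts, where the level was lower in both groups. The pooled log2 difference was -0.92 (SE 0.21, limma adjusted p = 0.618). Hba-x, the zeta-like embryonic alpha chain, was at 772, 1038 and 747 CPM in labelled fl/+ and 1819, 1769 and 1979 CPM in intact fl/+, and at 134, 127 and 97 CPM in labelled fl/fl and 126, 149 and 328 CPM in intact fl/fl. Its pooled log2 difference was -0.88 (SE 0.2, limma adjusted p = 0.618), again with overlap in Asb2 fl/fl hearts alone. Hbb-bh1 was at 536, 746 and 694 CPM in labelled fl/+ against 1783, 1398 and 1359.5 CPM in intact fl/+, and at 125, 86.2 and 73.9 CPM in labelled fl/fl against 132, 108 and 265 CPM in intact fl/fl. Its pooled log2 difference was -0.97 (SE 0.21, limma adjusted p = 0.524).

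For Hba-a1 the groups stood apart in both Asb2 genotypes. It was at 45.4, 49.3 and 31.2 CPM in labelled fl/+ against 89.9, 73.7 and 99.3 CPM in intact fl/+, and at 8.01, 4.92 and 5.57 CPM in labelled fl/fl against 8.23, 13.3 and 11.9 CPM in intact fl/fl. The pooled log2 difference was -0.94 (95% interval -1.27 to -0.6, SE 0.16, limma adjusted p = 0.229), lower in 6 of 6 labelled libraries than in every intact library of the same Asb2 genotype. Hba-a2 was at 8.12, 9.87 and 8.34 CPM in labelled fl/+ against 24.9, 26.3 and 23.3 CPM in intact fl/+, and at 1.86, 2.11 and 1.39 CPM in labelled fl/fl against 2.24, 2.74 and 4.58 CPM in intact fl/fl. It had a pooled log2 difference of -1.05 (95% interval -1.46 to -0.64, SE 0.19, limma adjusted p = 0.301) and likewise no overlap within either genotype. The remaining globins Hbb-bt and Hbb-bs, the adult beta chains, were at -0.57 each, with intervals that included 0.

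Of 7 globin genes, all tested, 5 were lower at an unadjusted p under 0.05, a rule met by 2.17% of all genes, and 6 were lower in both Asb2 genotypes, as were 20.1% of all genes. The median pooled log2 difference of the list was -0.92, with -1.2 within Asb2 fl/+ and -0.63 within Asb2 fl/fl, while the median over all tested genes was 0.01. Summed over the list, globins reached 3025, 3877 and 3068 CPM in labelled fl/+ against 7401, 7402 and 7971 CPM in intact fl/+, and 597, 456 and 349.6 CPM in labelled fl/fl against 503, 628 and 1182 CPM in intact fl/fl. The summed groups did not overlap in Asb2 fl/+ hearts and overlapped in Asb2 fl/fl hearts.

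Of the 15 other red cell genes tested, 14 had the same sign in the pooled comparison and 1 was at 0.02. Car2, the carbonic anhydrase of red cells, was at 28.9, 32.9 and 29.5 CPM in labelled fl/+ against 62.2, 53.4 and 70.0 CPM in intact fl/+, and at 7.66, 10.8 and 9.91 CPM in labelled fl/fl against 12, 11.5 and 14.9 CPM in intact fl/fl. Neither genotype showed overlap, and the pooled log2 difference was -0.71 (95% interval -1.0 to -0.43, SE 0.13, limma adjusted p = 0.301). Trim10, needed for late red cell maturation in cultured mouse erythroid cells, was at 3.34, 6.06 and 4.19 CPM in labelled fl/+ against 10.2, 6.67 and 10.3 CPM in intact fl/+. In labelled fl/fl it was at 0.382, 0 and 0 CPM against 0.872, 0.722 and 1.55 CPM in intact fl/fl, and the pooled log2 difference was -1.13 (95% interval -1.62 to -0.63, SE 0.23, limma adjusted p = 0.386).

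Of the 20 genes listed as red cell regulators and membrane proteins, 15 were tested, and the X-linked Gata1 and Alas2 with Epb42, Tspo2 and Icam4 were not. Of the 15, 11 were lower at an unadjusted p under 0.05 and 11 were lower in both genotypes, against 2.17% and 20.1% of all genes. The median pooled log2 difference of the 15 was -0.68 (-0.85 within Asb2 fl/+ and -0.46 within Asb2 fl/fl). Among them, named after their values were seen, Klf1, the transcription factor that switches on late red cell genes, had a pooled log2 difference of -0.95 and Slc4a1, the anion exchanger of the red cell membrane, one of -0.97. Klf1 was at 4.2 to 8.73 CPM in labelled fl/+ against 11.7 to 15.5 CPM in intact fl/+, and at 0.224 to 0.453 CPM in labelled fl/fl against 0.608 to 2.13 CPM in intact fl/fl, with no overlap in either. Slc4a1 was at 43.6 to 59.8 CPM in labelled fl/+ against 66.8 to 114 CPM in intact fl/+, and at 4.47 to 5.25 CPM in labelled fl/fl against 6.76 to 19.9 CPM in intact fl/fl, again with no overlap. Tal1, which endothelial cells also use, differed little (-0.14, 95% interval -0.45 to 0.16). Without overlap in both genotypes and lower in both were 2 of 7 globin genes and 4 of the 15 other red cell genes, a pattern shown by 0.233% of all genes.

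Of 17 genes of iron uptake and heme synthesis, 5 were lower at an unadjusted p under 0.05, against 2.17% of all genes. In both genotypes 11 were lower, against 20.1% of all genes (median -0.19). The 5 were Slc25a37, the mitochondrial iron importer of red cells (-0.4), Abcb10, which stabilises it (-0.29), Alad (-0.26) and Ppox (-0.22), both enzymes of heme synthesis, and Fth1, the ferritin heavy chain (-0.24), all named after their values were seen. None of the 39 tested genes of these 3 lists passed.

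Red cell values were also taken with Xist in view, and no red cell gene passed in either fit. With the Xist covariate the globin median was -0.96 and that of the 15 other red cell genes -0.67, with 6 and 8 genes lower at an unadjusted p under 0.05. Over the 7 libraries with low Xist, with 1 intact library in each Asb2 genotype, the globin median was -0.79 and 6 of 7 were lower at an unadjusted p under 0.05, and the median of the 15 other red cell genes was -0.69 with 5 of them under that p. Over 29 alternative settings the globin median ran from -1.04 to -0.79 and that of the other red cell genes from -0.81 to -0.5. With no Asb2 block, 0 of the 22 were under an unadjusted p of 0.05, at the same medians. In the pooled comparison DESeq2 was the 1 setting under which red cell genes passed, 5 globins and 3 others. Within Asb2 fl/+ hearts, where none passed in the fit of 4 group means, Hba-a2 passed with a pseudocount of 2 (limma adjusted p = 0.0402), with library weights (0.0182), in the fit over 6 libraries (0.0216), and without intact fl/fl library 2 (0.0499) or 3 (0.0388). Car2 passed there with library weights (limma adjusted p = 0.0182), over 6 libraries (0.0277) and without intact fl/fl library 2 (0.0424). Hba-x passed over 6 libraries (limma adjusted p = 0.0216) and without intact fl/fl library 3 (0.0388), and Hbb-y (0.0216) and Hbb-bh1 (0.028) passed over 6 libraries. By DESeq2 within Asb2 fl/+, Hba-a2 and Car2 (adjusted p = 4.51e-06 each), Hbb-y (0.00288), Hba-a1 (0.00323) and Rhd (0.0316) passed, all lower. Of the iron genes named above, Fth1 (0.0239) and Slc25a37 (0.0289) also passed by DESeq2 there, both lower. Within Asb2 fl/fl hearts Slc4a1 passed as lower by DESeq2 (log2 difference -1.31, adjusted p = 0.0294).

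**Figure D2:**
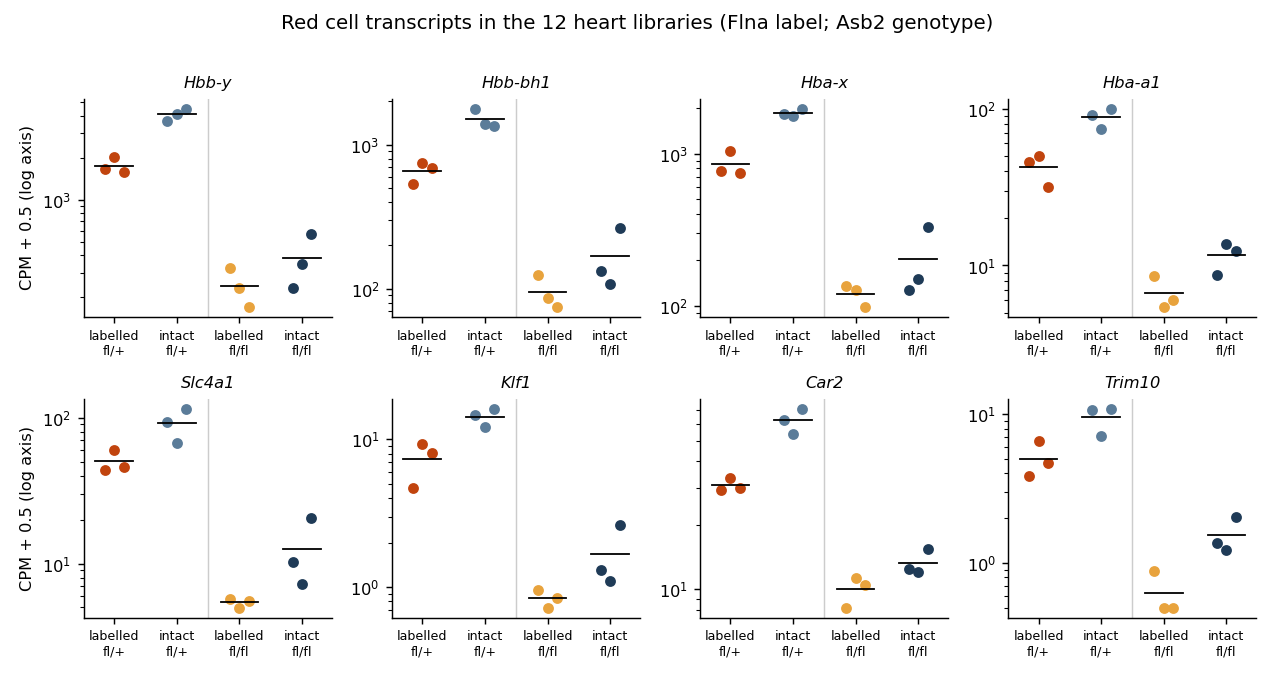
Levels of 4 globin genes and 4 other red cell genes in each of the 12 libraries, as CPM + 0.5 on a log axis. The 4 other red cell genes are those of the 15 tested that had no overlap in either Asb2 genotype, so they do not stand for the list. Points are libraries, bars are the means of the 3 libraries of a group, and a grey line parts the Asb2 genotypes. In Asb2 fl/+ hearts the labelled points lie below the intact ones for all 8 genes, and in Asb2 fl/fl hearts for Hba-a1, Slc4a1, Klf1, Car2 and Trim10, while Hbb-y, Hbb-bh1 and Hba-x overlap there.

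The other 5 of the 10 genes with the smallest p are not red cell genes. 4933404O12Rik (chromosome 5, 136919146 to 136937112) was at 16.2, 9.78 and 9.84 CPM in labelled fl/+ against 19.5, 23.9 and 24.3 CPM in intact fl/+, and at 7.35, 5.07 and 6.91 CPM in labelled fl/fl against 14.8, 18.5 and 10.7 CPM in intact fl/fl. It had the smallest p of all genes (log2 difference -1.02, 95% interval -1.37 to -0.67, limma adjusted p = 0.229) and no overlap within either genotype. Without labelled fl/+ library 1, the highest of the labelled values, it passed (-1.13, adjusted p = 0.0236), and its adjusted p ran from 2.11e-05 to 1.0 over 29 alternatives. Ncapd2, a subunit of the condensin complex that compacts chromosomes in mitosis, was at 396, 329.5 and 312 CPM in labelled fl/+ and 348, 292 and 274 CPM in labelled fl/fl, against 220.3, 234 and 245 CPM in intact fl/+ and 228, 266 and 215 CPM in intact fl/fl. All 6 labelled libraries were above all 6 intact ones, and the log2 difference was 0.46 (95% interval 0.27 to 0.66, limma adjusted p = 0.375). The list of 23 mitosis genes did not share this sign, with a median of -0.04 and no member higher at an unadjusted p under 0.05.

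Pyy, the gut peptide YY, was low throughout, at 0.405, 2.46 and 0.955 CPM in labelled fl/+ and 0.906, 1.59 and 0.743 CPM in labelled fl/fl, against 2.17, 4.99 and 2.33 CPM in intact fl/+ and 7.05, 3.88 and 7.81 CPM in intact fl/fl. The groups overlapped in Asb2 fl/+ hearts and not in Asb2 fl/fl hearts (pooled log2 difference -1.61, 95% interval -2.3 to -0.91, limma adjusted p = 0.375). The clone-named RP24-390G17.1 was lower in all 6 labelled libraries than in all 6 intact ones (log2 difference -0.64, limma adjusted p = 0.375).

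Gm10260 (chromosome 13, 97760072 to 97760632) is a predicted gene. It was at 129, 3.17 and 99.5 CPM in labelled fl/+ and 154, 139 and 68.4 CPM in labelled fl/fl, against 5.27, 4.12 and 4.0 CPM in intact fl/+ and 2.65, 2.13 and 4.47 CPM in intact fl/fl. Thus 5 of 6 labelled libraries were above all intact ones, and labelled fl/+ library 2 was within the intact range. The log2 difference was 3.96 (95% interval 2.26 to 5.66, limma adjusted p = 0.414), and 4.82 (adjusted p = 3.16e-07) without labelled fl/+ library 2. The Gm10260 transcript is 99.1% identical to that of Rps18, a protein of the small ribosomal subunit, over 545 bases, with 5 mismatches, so its value is uncertain. Rps18 was at 78.4, 124 and 87.2 CPM in labelled fl/+ and 138, 147 and 88.7 CPM in labelled fl/fl, against 189.6, 211 and 134 CPM in intact fl/+ and 145, 135 and 175 CPM in intact fl/fl. Summed, the pair was at 127 to 292 CPM in labelled libraries and 137 to 215 CPM in intact libraries, which overlap.

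**Figure D3:**
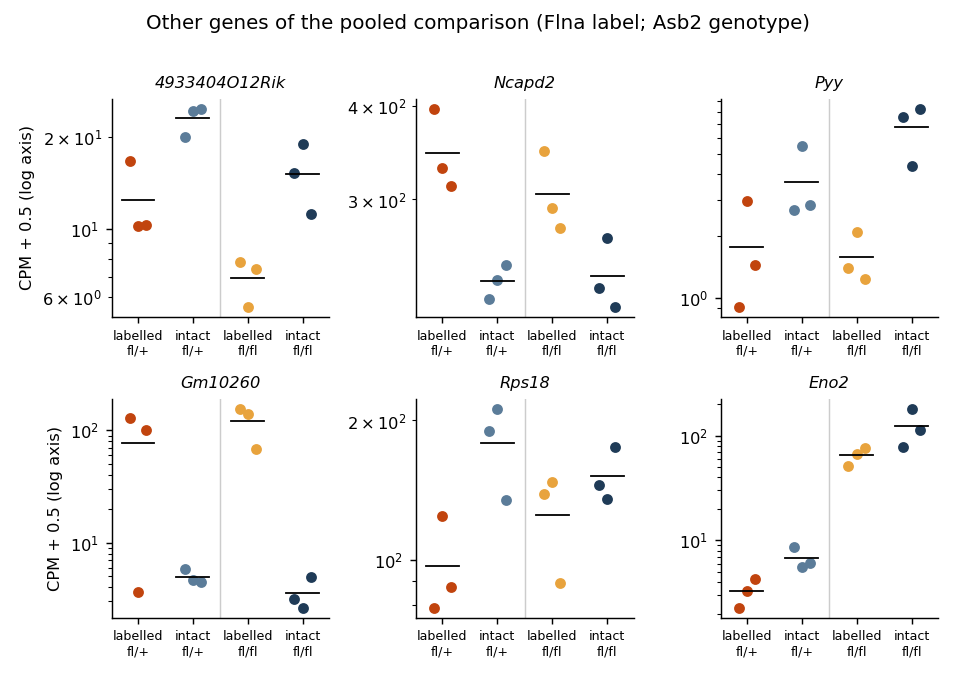
Levels of 6 further genes of the pooled comparison in each of the 12 libraries, as CPM + 0.5 on a log axis. Points are libraries, bars are the means of the 3 libraries of a group, and a grey line parts the Asb2 genotypes. Ncapd2 is higher in all 6 labelled libraries, Gm10260 is high in 5 of 6 labelled libraries, and 4933404O12Rik and Eno2 (an enolase gene, chosen after its values were seen) are lower in labelled hearts within each genotype.

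Besides Ncapd2 and RP24-390G17.1, a further 11 genes separated all 6 labelled from all 6 intact libraries, named here after their values were seen. Such a separation was shown by 13 genes (0.0976% of those tested), 8 higher (0.0601%) and 5 lower (0.0375%). Higher in labelled hearts were Ylpm1 (0.24), Tert (0.71), Ints6 (0.32), Brd1 (0.24), Scaf8 (0.21), Gm18737 (0.46) and Ralgps2 (0.2), on the log2 scale. Tert encodes the catalytic subunit of telomerase and Brd1 a bromodomain protein of a histone acetyltransferase complex. Brd1 was at 109 to 116 CPM in the labelled libraries against 81.8 to 105 CPM in the intact ones, and Tert at 5.58 to 7.1 CPM against 2.41 to 5.2 CPM. Lower in labelled hearts were Ncoa4, the receptor that delivers ferritin for breakdown (-0.66), Tlcd1 (-0.49), Etv4, a transcription factor downstream of fibroblast growth factor (-0.37), and Rxrg, a retinoid receptor (-0.54). Ncoa4 was at 4.68 to 9.37 CPM in the labelled libraries against 9.6 to 11.6 CPM in the intact ones. Limma adjusted p was 0.618 or more for each of these 11.

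No gene of the filamin list passed in the pooled comparison. Flnc, encoding the filamin of striated muscle, was at 426 to 716 CPM in labelled fl/+ and 852 to 1429 CPM in labelled fl/fl, against 429.5 to 723 CPM in intact fl/+ and 758 to 1544 CPM in intact fl/fl (pooled log2 difference -0.03, 95% interval -0.47 to 0.42). Groups overlapped within both genotypes. The Flnc difference was -0.35 with the Xist covariate (unadjusted p = 0.193 by limma) and -0.56 over the 7 libraries with low Xist (unadjusted p = 0.0291, adjusted p = 0.485 by limma). Of 26 genes of filamins, their partners and the Asb2 ligase, 21 were tested. Their median pooled log2 difference was -0.03, and for 20 of them the 95% interval lay inside 1.5-fold. Rnf7, a RING subunit of cullin ligases named after its values were seen, was lower at an unadjusted p under 0.05 (-0.22). Of 30 genes of the actin cytoskeleton and focal adhesions, 0 were under that p, the median was -0.01, and 26 had intervals inside 1.5-fold.

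Targets of SRF and MRTF, factors that read the actin state, had a median of -0.16 over 17 tested genes, with 1 higher at an unadjusted p under 0.05, and targets of YAP, which reads cell tension, had a median of 0.06 over 18, with 2 higher. The TGF-beta and BMP, Wnt and Notch lists had medians of 0.06, 0.12 and 0.06. Of the 40 lists, holding 837 genes of which 761 were tested, 0 had a member that passed in the pooled comparison. Apart from the red cell lists, medians were highest for neural crest markers (0.44, 13 of 15 higher, 9 of them in both genotypes, 2 at an unadjusted p under 0.05) and for the amino acid stress response (0.24, 21 of 22 higher, 15 in both, 5 at an unadjusted p under 0.05). Higher in both genotypes were 24.3% of all genes, and higher in the pooled comparison at an unadjusted p under 0.05 were 2.97%. The median pooled difference over all tested genes was 0.01. Summed neural crest levels overlapped in both genotypes. They were 288 to 517 CPM in labelled fl/+ against 231 to 456 CPM in intact fl/+. In the other genotype they were 277 to 599.6 CPM in labelled fl/fl against 324 to 534 CPM in intact fl/fl. Within the stress list, with names chosen after the values were seen, Sesn2, a stress-induced inhibitor of mTOR signalling, was at 16.7 to 19.3 CPM in labelled fl/+ against 12.2 to 13.4 CPM in intact fl/+, and at 65.8 to 105 CPM in labelled fl/fl against 35.1 to 75.9 CPM in intact fl/fl. Its groups were apart in the first genotype and overlapped in the second (pooled log2 difference 0.52, limma adjusted p = 0.894). Tfap2c, of the neural crest list, was at 0.768 to 3.84 CPM in labelled against 0.342 to 1.82 CPM in intact libraries (0.99, limma adjusted p = 0.894).

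**Figure D4:**
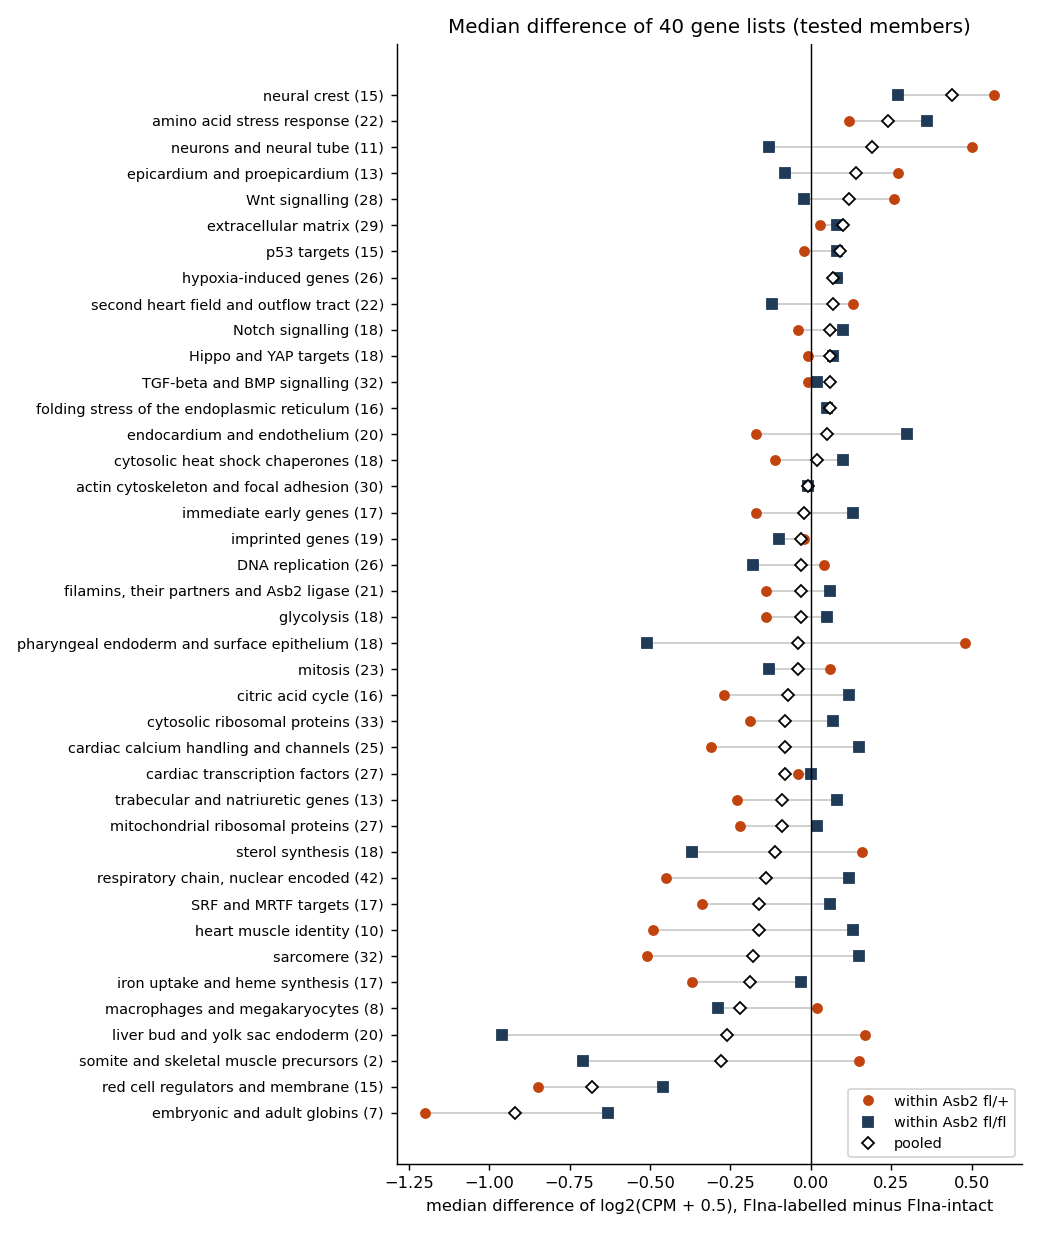
Median difference of log2(CPM + 0.5), Flna-labelled minus Flna-intact, over the tested members of each of 40 gene lists, with the number of members in brackets. Circles are the difference within Asb2 fl/+ hearts, squares that within Asb2 fl/fl hearts and open diamonds the pooled one. Globins and red cell genes have the lowest medians within Asb2 fl/+ and pooled, the liver bud and yolk sac list has the lowest within Asb2 fl/fl, and sarcomere and respiratory chain genes lie on opposite sides of 0 in the 2 genotypes.

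The pooled value averages over 2 within-genotype differences, which share no library, and these often had opposite signs. The sign was opposite for 55.6% of genes, and over genes the correlation was -0.21 (Pearson) and -0.16 (Spearman), a description over genes that are not independent. Groups stood apart in both genotypes in opposite directions for 120 genes (0.901%), against 39 higher in both (0.293%) and 31 lower in both (0.233%). Within Asb2 fl/+ hearts 1 gene passed (0.00751%) and 1655 were under an unadjusted p of 0.05 (12.4%), with 6.55% of all genes higher and 5.88% lower. Within Asb2 fl/fl hearts 0 passed (0.0%, lowest limma adjusted p = 0.909) with 571 under that p (4.29%), 2.14% higher and 2.15% lower, and the interaction gave 0 (0.0%, lowest adjusted p = 0.0843) with 1311 (9.84%), of which 4.89% were positive and 4.95% negative, as shares of all genes. Genes under that p in both genotypes numbered 38 with the same direction (0.285%) and 81 with opposite directions (0.608%). By edgeR all 3 gave 0, with 1680, 564 and 1334 genes under an unadjusted p of 0.05, and by DESeq2 118, 9 and 65. These counts also moved with single libraries: without intact fl/fl library 2 they were 9, 9 and 19. Within Asb2 fl/+ the count was 2 without intact fl/+ library 2, 3 without intact fl/fl library 3 and 3 without labelled fl/+ library 3. Within Asb2 fl/fl it was 1 without labelled fl/+ library 1 and 2 without labelled fl/+ library 2, and the interaction gave 1 without labelled fl/+ library 2.

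Of the 40 lists, 29 had medians of opposite sign in the 2 genotypes, 5 were lower in both and 5 higher in both. The 32 tested sarcomere genes, which build the contractile filaments, had a median of -0.51 within Asb2 fl/+ and 0.15 within Asb2 fl/fl, which pooled to -0.18. Of the 32, 3 were lower in both genotypes, against 20.1% of all genes. Summed over 33 of the 34 listed genes, the level was 28472 to 52218 CPM in labelled fl/+ against 45849 to 69475 CPM in intact fl/+, and 43072 to 66456 CPM in labelled fl/fl against 37736 to 60768 CPM in intact fl/fl, with overlap in each. The 42 respiratory chain genes had medians of -0.45 and 0.12 in the same order, pooling to -0.14, against a median of 0.01 over all tested genes. Of the 42, 41 were below 0 when pooled. Lower in both genotypes were 7 of the 42, against 20.1% of all genes. Summed over all 44 listed genes, the level was 12369 to 15113 CPM in labelled fl/+ against 15797 to 18638 CPM in intact fl/+, without overlap, and 11356 to 12714 CPM in labelled fl/fl against 9825 to 12574 CPM in intact fl/fl, with overlap. No gene of either list passed in any of the 4 tests of the main fits. Under alternative settings some respiratory chain genes passed within Asb2 fl/+, all named after their values were seen. Cox6c and Ndufa4 passed as lower with library weights (limma adjusted p = 0.0465 and 0.0468) and by DESeq2 (adjusted p = 0.0239 and 0.034). Ndufb10, among the 10 genes with the smallest p there, was also lower and passed under both (limma adjusted p = 0.0182, DESeq2 adjusted p = 0.000157).

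The single call within Asb2 fl/+ hearts was Alb, encoding serum albumin, a marker of liver cells and of the endoderm that forms them. Alb was at 5.95, 26.0 and 7.6 CPM in labelled fl/+ against 0, 0 and 0.137 CPM in intact fl/+, and it rose there (log2 difference 4.36, SE 0.57, limma adjusted p = 0.0401). The call was lost in 13 of 25 alternatives, whose adjusted p ran from 0.00284 to 0.324, and it was ended by leaving out any intact fl/+ library, any labelled fl/fl library, or labelled fl/+ library 1 or 2. In labelled fl/fl libraries Alb had no read, against 1.93, 0 and 1.03 CPM in intact fl/fl. The interaction was -5.66 (SE 0.81, limma adjusted p = 0.0843). Vtn and Cebpa are among the 10 genes with the smallest p within Asb2 fl/+ and did not pass there. Vtn, encoding the plasma protein vitronectin, was at 9.41, 22.1 and 8.78 CPM in labelled fl/+ against 0, 0.741 and 0.24 CPM in intact fl/+, and at 0.787, 0.944 and 0.0248 CPM in labelled fl/fl against 14.1, 1.41 and 9.63 CPM in intact fl/fl. Intact fl/fl libraries 1 and 3 were high and library 2 was low. Cebpa, a transcription factor of liver and fat, was at 5.62, 10.5 and 6.72 CPM in labelled fl/+ against 0.23 to 0.821 CPM in intact fl/+, and at 0.842 to 2.19 CPM in labelled fl/fl against 0.95 to 4.71 CPM in intact fl/fl.

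The liver bud and yolk sac list had a median of 0.17 within Asb2 fl/+ and of -0.96 within Asb2 fl/fl, the same signs as Alb. Its members did not all share these signs. Of 20 tested, 8 were lower in both genotypes, as were 20.1% of all genes, and 0 were higher in both. Apoa4 and Amn were lower in the pooled comparison at an unadjusted p under 0.05, as were 2.17% of all genes. Without intact fl/+ library 2, Apoa4 passed as lower within Asb2 fl/+ (-4.21, limma adjusted p = 0.0191). Summed over 23 of its 24 genes the list was at 190 to 682 CPM in labelled fl/+ against 17.6 to 443 CPM in intact fl/+, and at 29.8 to 49.3 CPM in labelled fl/fl against 39.7 to 205 CPM in intact fl/fl. Its pooled median was -0.26, and for 0 of its 20 tested genes did the 95% interval lie inside 2-fold. How much tissue next to the heart each library held was not tested.

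**Figure D5:**
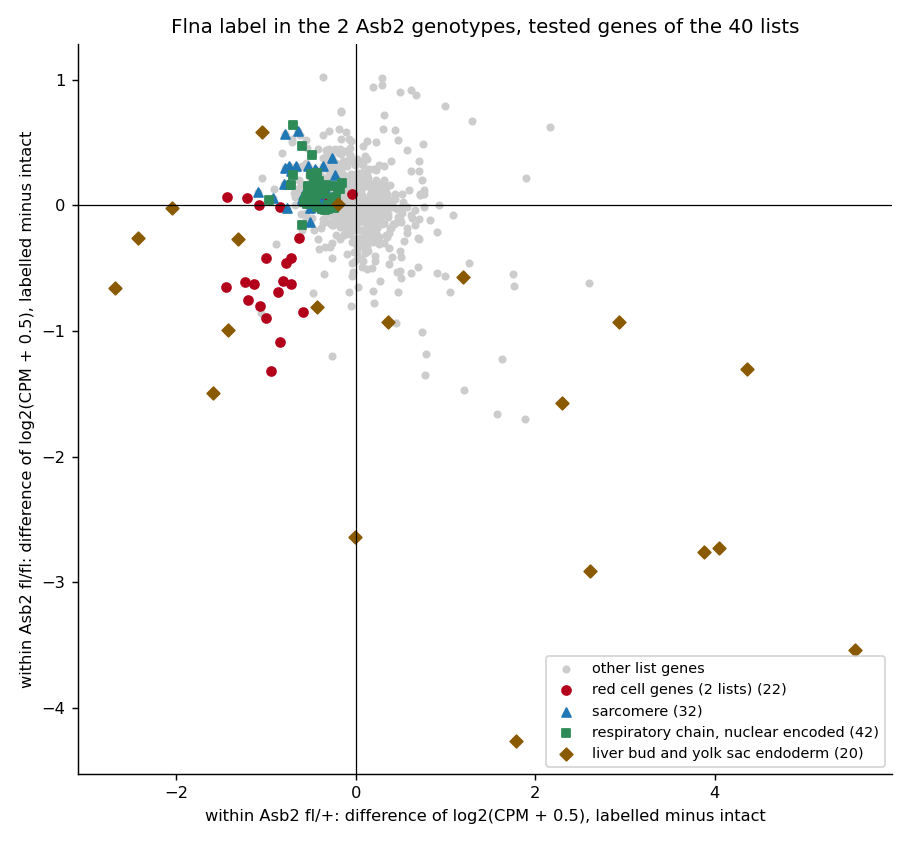
Difference of log2(CPM + 0.5), Flna-labelled minus Flna-intact, within Asb2 fl/+ hearts (horizontal) and within Asb2 fl/fl hearts (vertical) for the tested genes of the 40 lists. Red points are the 22 red cell genes, most of them lower in both genotypes, triangles the 32 sarcomere genes and squares the 42 respiratory chain genes, mostly below 0 on the horizontal axis and above 0 on the vertical axis, and diamonds the 20 liver bud and yolk sac genes, which are widely spread.

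The authors' deposited tables hold their own tests of the same 2 within-genotype comparisons. Among the genes tested here, the authors' deposited table for labelled fl/+ against intact fl/+ had 86 genes at an FDR under 0.05, 54 higher and 32 lower, and the authors' deposited table for labelled fl/fl against intact fl/fl had 17, of which 3 were higher and 14 lower. The 2 lists shared 5 genes, 5.81% of the first list and 29.4% of the second. In the authors' deposited table Alb had a log2 fold change of 8.12 in the first comparison (FDR 1.57e-06) and of -8.08 in the second (FDR 0.00201). In the authors' deposited table Gm10260 was higher in both, at 4.12 (FDR 3.99e-05) and 5.29 (FDR 7.77e-08). In the authors' deposited table Hba-a1 was at -1.06 (FDR 0.00131) and -0.85 (FDR 0.111), and Hbb-y at -1.22 (FDR 0.00173) and -0.66 (FDR 0.788).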

How the data were processed

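RNA was measured in 12 libraries, 3 in each of 4 genotype groups taken from the genotype labels. Per the submitters' processing notes, STAR, HTSeq and edgeR were used with the mm10 genome; versions, annotation, strand and settings are not given in the sources used here. The deposited expression values were named CPM by the authors, but their columns sum to 942334 to 1051801, so they are treated as a signal on scaled library sizes, where plain CPM had been assumed. All of them (100.0%) were whole multiples of 1 read within 0.01 read, so read counts were recovered from the deposited values. The authors' deposited log2 fold changes and p-values are quoted only by name, and 13 columns without headers were not used. The 4 tables were joined on gene ID. A shared library differed between tables by at most 4.4e-06 CPM. Of 14810 genes listed for all 12 libraries, 14090 were autosomal by GENCODE M21, and 125 had no entry there.

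Differences are of log2(CPM + 0.5), labelled minus intact, which understates low genes. They were tested two-sided with limma 3.58.1 (trend, robust) in R 4.3.3, with Benjamini-Hochberg adjustment over all 13322 genes and a threshold of 0.05. The pooled fit had the Asb2 genotype as a block, and the within-genotype and interaction contrasts came from a fit of 4 group means. Flna and Xist were tested by exact permutation over 400 arrangements. Alternatives were other pseudocounts, filters, scalings and weights, edgeR 4.0.16, DESeq2 1.42.0, a replicate block, Xist as a covariate, length trends and each library left out. Leaving out all libraries whose Xist level reached 1 CPM was added after the data were seen. The code was tested on simulated counts. Sequence identity came from blastn 2.17.0, figures from matplotlib 3.10.9, and the rest from scipy 1.17.1 and pandas 2.3.3 under python 3.11.15.

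The comparison and the gene lists were chosen with earlier results of these data known. The naming rule took Asb2, Flna and other filamin genes, list members past the threshold, and, where fewer than 5 genes passed a comparison, its 10 genes with the smallest p; of these the text gives a part, and some items are not reported here.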

Additional observations from a re-analysis of the deposited data

Results flagged for a closer look

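For 6 genes among those with the smallest interaction p, every labelled library lay on one side of every intact library within Asb2 fl/+ hearts and on the other side within Asb2 fl/fl hearts, a pattern that 0.901% of all tested genes showed. Taking genes by their interaction p in the same libraries favours this pattern, so the share is given for scale only. None of the 6 passed the interaction test of limma over all 12 libraries. The interaction, as the log2 difference within Asb2 fl/fl minus that within Asb2 fl/+, was -6.77 for Vtn (adjusted p = 0.0843), -4.68 for Reln (adjusted p = 0.188), -2.94 for Fgfr4 (adjusted p = 0.405), -2.21 for Scd1 (adjusted p = 0.285), -1.18 for Plxna2 (adjusted p = 0.272) and 1.27 for Ebf1 (adjusted p = 0.272). Reln, an extracellular glycoprotein, was at 23.3, 39.3 and 45.1 CPM in labelled fl/+ against 10.2, 5.79 and 8.28 CPM in intact fl/+, and at 5.41, 4.17 and 5.23 CPM in labelled fl/fl against 65.6, 10.5 and 49.8 CPM in intact fl/fl. Scd1, a fatty acid desaturase, was at 38.5, 55.2 and 35.0 CPM in labelled fl/+ against 29.4, 18.4 and 22.6 CPM in intact fl/+, and at 13.7, 12.6 and 16.2 CPM in labelled fl/fl against 57.5, 22.2 and 38.9 CPM in intact fl/fl. For both genes intact fl/fl library 2 was the lowest of its group. That library had Xist at 0.38 CPM, against 571 and 377 CPM in intact fl/fl libraries 1 and 3. Labelled fl/fl libraries had at most 9.34 CPM of Xist. On leaving out intact fl/fl library 2, the Flna label and the Xist level cannot be told apart within Asb2 fl/fl hearts. Without that library the interaction passed by limma for Reln (adjusted p = 3.35e-05), Vtn (adjusted p = 0.000711) and Scd1 (adjusted p = 0.00586). With library weights it passed by limma for Vtn and Reln (adjusted p = 0.0108 each), Scd1 (adjusted p = 0.0173) and Plxna2 (adjusted p = 0.0361), with the Xist covariate for Vtn (adjusted p = 0.0247) and Reln (adjusted p = 0.0345), and by DESeq2 for all 6. Ebf1 had the opposite order, at 10.6, 8.58 and 11.5 CPM in labelled fl/+ against 14.6, 15 and 13.7 CPM in intact fl/+, and at 20.6, 15 and 14.5 CPM in labelled fl/fl against 10.4, 8.63 and 9.26 CPM in intact fl/fl.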

How the results depend on the processing

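Counts of genes past the threshold are given in the order pooled, within Asb2 fl/+, within Asb2 fl/fl, interaction, where the main counts were 0, 1, 0 and 0. DESeq2 gave 22, 118, 9 and 65, and left 272 genes without an adjusted p in the pooled comparison. Library weights gave 0, 49, 0 and 9, and Xist as a covariate 0, 3, 0 and 5. Fits over the 6 libraries of a contrast gave 10 within Asb2 fl/+ and 3 within Asb2 fl/fl. A pseudocount of 0.1, limma without trend or robust, edgeR and the replicate block each gave 0 within Asb2 fl/+. A filter of 5 CPM also gave 0 there, but Alb averaged less than 5 CPM and was not tested under it. Leaving out 1 library gave 0 to 2, 0 to 9, 0 to 9 and 0 to 19. The replicate block gave 0 in the pooled comparison, with 584 genes under an unadjusted p of 0.05 against 684. Same-numbered libraries correlated at -0.48 to 0.43, and in 0 of 6 pairs of groups did all 3 exceed 0.1. Between labelled fl/+ and labelled fl/fl the values were 0.28, 0.03 and 0.43. These are correlations of deviations from means of 3 libraries, so they cannot decide whether the numbers pair the libraries. The Xist difference ran from -6.87 to -4.53 with 1 library left out, with p of 0.05 to 0.075 in 5 of 12 cases, and that of Flna from 0.46 to 0.6. Flnc changed sign, within -0.14 to 0.08, in 6 of the fits that left out 1 library. Of 1251 alternative values of 47 named results, 1148 kept direction and side of the threshold, 84 newly passed, 13 (all Alb) no longer passed and 6 (all Flnc) turned sign. With 6 libraries a side, pooled differences under about 1.5-fold could not be bounded for the genes outside the 78.3% given above.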

Other observations

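Transcripts of the mitochondrial genome, which were outside the autosomal test, summed to 3277, 3593 and 4380.5 CPM in labelled fl/+ against 7652, 8990 and 6181 CPM in intact fl/+, without overlap, and to 2532, 3117 and 3855 CPM in labelled fl/fl against 3456, 3873 and 3563 CPM in intact fl/fl, with overlap. Eno2, an enolase of neurons that low oxygen also induces, was singled out after its values were seen. It was at 1.77, 2.77 and 3.75 CPM in labelled fl/+ against 8.06, 5.02 and 5.58 CPM in intact fl/+, and at 50.7, 67.2 and 76.2 CPM in labelled fl/fl against 76.9, 179 and 114 CPM in intact fl/fl, apart in both genotypes (pooled log2 difference -0.96, 95% interval -1.41 to -0.51, limma adjusted p = 0.524). The 18 tested glycolysis genes had a median of -0.03, and Eno2 was the 1 member under an unadjusted p of 0.05. Hspa8, the constitutive cytosolic Hsp70, was likewise singled out, at 658 to 755 CPM in labelled fl/+ against 572 to 631 CPM in intact fl/+ and at 418 to 460.4 CPM in labelled fl/fl against 335 to 406 CPM in intact fl/fl, again apart in both (0.26, 95% interval 0.1 to 0.42, limma adjusted p = 0.894).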
